A study of Homo sapiens with 12 samples.

Results

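Axon guidance genes encode the cues and receptors that steer growing axons and migrating neural crest cells. In the deposited expression table of IMR32 cells, 67 of 27514 listed genes belonged to this set by their symbol. They comprised 8 ephrins (EFNA and EFNB), 14 Eph receptors (EPHA and EPHB), 20 semaphorins (SEMA3 to SEMA7), 9 plexins (PLXN), 3 Slits, 4 Robo receptors, 4 netrins (NTN) and 5 netrin receptors (DCC and UNC5A to UNC5D). Neuropilins, the co-receptors of class 3 semaphorins, were counted apart. Of the 67 genes, 50 had a mean of at least 1 CPM (the read count scaled to the size of the library) over the 12 samples and were tested.

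IMR32 is an established human neuroblastoma cell line with amplification of MYCN, so every group carried the amplified gene. Small interfering RNAs (siRNAs) were introduced by Nucleofector electroporation, and RNA was taken after 72 h of culture. The 4 groups of 3 samples received the control siCTR (siCtrl below), siMYCN_2 against MYCN (siMYCN), siHAND2_3 against HAND2 (siHAND2), or both, labelled siM2+siH2_3 (the combined knockdown). One line was used with 1 named siRNA per target, and the labels do not say whether samples of a group were separate cultures, so p-values measure the spread between these samples, which may be technical.

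Ephrins are membrane-bound ligands that often repel cells carrying Eph receptor tyrosine kinases, and semaphorins signal through plexins, in class 3 with neuropilins as partners. Slits are secreted repellents read by Robo receptors, while netrins attract axons through DCC and repel them where UNC5 proteins take part. MYCN and HAND2 are transcription factors of the sympathetic lineage from which neuroblastoma arises, and the design asks which genes depend on each of them and on both.

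The knockdowns were checked first on their targets. MYCN lay at 963.9, 1048.6 and 1015.1 CPM in siCtrl, 671.1, 666.1 and 707.8 in siMYCN, 899.2, 844.4 and 802.0 in siHAND2 and 554.5, 457.9 and 432.7 with both siRNAs. As deposited, its mean was thus 67.5% of siCtrl in siMYCN, 84.1% in siHAND2 and 47.7% with both siRNAs. HAND2 stood at 26.0% of siCtrl in siHAND2 and 30.7% with both siRNAs, and at 136% in siMYCN. HAND2 samples ranged from 223.5 to 254.0 CPM in siCtrl and from 54.3 to 86.3 CPM in the groups that received siHAND2_3, without overlap. By limma MYCN fell by 0.57 in siMYCN (adjusted p = 0.000532) and 1.07 in the combined knockdown (1.26e-08), a partial reduction, and was -0.25 in siHAND2 (0.086). MYCN overlaps the antisense gene MYCNOS, and HAND2 neighbours HAND2-AS1, whose reads cannot be told apart where they overlap, since the use of strand is not known.

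Estimated depth was 31.6 to 64.2 M reads per sample, and 3 reads corresponded to 0.0468 to 0.095 CPM. Listed genes took 65.1% ± 0.736 (SD, n = 3) of the reads in siCtrl, 62.4% ± 0.979 in siMYCN, 59.4% ± 2.39 in siHAND2 and 51.4% ± 7.04 with both siRNAs, where it ranged from 44.3 to 58.4%. Each knockdown differed from siCtrl at p = 0.1 (exact permutation test, two-sided), the smallest p that 3 against 3 samples can give. The median log2 difference from siCtrl over the 12680 genes tested was 0.006 in siMYCN, -0.135 in siHAND2 and -0.279 with both siRNAs. Calls are also given after rescaling, in which each sample was divided by the median of its genes' ratios to their geometric mean, which brought these medians to 0.014, 0.012 and 0.045. After rescaling MYCN was -0.555 in siMYCN, -0.09 in siHAND2 (limma adjusted p = 0.265) and -0.71 in the combined knockdown. The MYCN difference of the combined knockdown from siMYCN, -0.51 as deposited (0.000701), was then -0.16 (0.0535). HAND2 was -1.77 in siHAND2 and -1.34 in the combined knockdown after rescaling, and the latter lay above the former by 0.43 (0.00157). Of 9 noradrenergic neuroblastoma markers, 8 had a mean of at least 1 CPM, and TH lay at 0.78 CPM. The summed level of these markers, among them HAND2, was 765 to 822 CPM in siCtrl, 1033 to 1064 in siMYCN, 716 to 762 in siHAND2 and 569 to 866 with both siRNAs. Schwann cell (1 of 6), endothelial (1 of 5) and leukocyte (0 of 5) markers were mostly below 1 CPM. Schwann cell markers summed to 1.87 to 2.13 CPM in siCtrl, 2.88 to 3.68 in siMYCN, 2.41 to 2.86 in siHAND2 and 3.12 to 3.86 with both siRNAs. For endothelial markers the sums were 0.61 to 0.89, 2.09 to 2.88, 0.95 to 1.45 and 1.19 to 1.95 CPM, and for leukocyte markers 0.44 to 0.80, 0.65 to 0.84, 0.51 to 0.71 and 0.85 to 0.96 CPM, in the same order. Of 8 mesenchymal markers 4 reached it (COL1A1, PDGFRB, TWIST1 and FN1) while PRRX1 was at 0 in all samples, and the mesenchymal sum was 97.6 to 103 CPM in siCtrl, 103 to 109 in siMYCN, 54.5 to 58.1 in siHAND2 and 43.2 to 58.2 with both siRNAs. TWIST1 (mean 47.8 CPM over the 12 samples) and FN1 (18.9) were the largest parts of the mesenchymal sum, so it does not describe these markers as a set. The part of all these marker lists in the changes of guidance genes was not tested. In bulk RNA, fewer cells of a type and less RNA per cell cannot be told apart.

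In siMYCN, 22 of the 50 tested genes rose and 4 fell (limma, Benjamini-Hochberg adjusted p under 0.05, which is the meaning of rose, fell and called below), where 33.7% of all genes tested were called in either direction, 17.4% higher and 16.3% lower. In siHAND2, 20 rose and 9 fell, where 42.7% of all genes were called, 12.3% higher and 30.4% lower. The combined knockdown raised 23 and lowered 13, where 67.4% of all genes were called, 17.4% higher and 50.1% lower. Without combined replicate 3, the sample with the lowest share of reads in listed genes, 40 genes were called in the combined knockdown. Calls over all genes ranged from 7833 to 9340 when 1 sample was left out. The share for the fit without combined replicate 3 is not given, so its count is not read as a result about guidance genes. The median log2 difference of the 50 genes, on the log2(CPM + 1) scale, was 0.25 in siMYCN, 0.17 in siHAND2 and 0.20 with both siRNAs, against the medians of all genes given above. After rescaling, the counts were 26 higher and 5 lower in siMYCN, 25 and 8 in siHAND2, and 33 and 10 in the combined knockdown, where 47.9%, 50.8% and 70.7% of all genes were called (25.4% higher and 22.5% lower, 25.9% and 24.9%, and 37.7% and 33%). Of the 28 tested ligands, 12 rose and 1 fell in siMYCN, 12 rose and 4 fell in siHAND2, and 10 rose and 7 fell in the combined knockdown. Of the 22 tested receptors, 10 rose and 3 fell, 8 rose and 5 fell, and 13 rose and 6 fell in the same order. After rescaling the ligands gave 15 higher and 2 lower, 15 and 4, and 18 and 6, and the receptors 11 and 3, 10 and 4, and 15 and 4. SEMA3C and SEMA5B averaged under 1 CPM in siCtrl and passed the filter only through groups in which they were high, so their values are given below without p. Without them, 21 genes rose and 4 fell in siMYCN, 18 and 9 in siHAND2, and 21 and 13 in the combined knockdown.

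Across the 3 comparisons, which share the siCtrl samples, 45 of the 50 genes were called at least once, as were 75.6% of all genes tested. Higher in all 3 knockdowns were 9 genes (DCC, UNC5A, EFNB3, PLXNA2, PLXNA3, PLXNB1, SEMA3C, SEMA4G and SEMA6C), and lower in all 3 were EPHA2 and PLXND1, patterns shown by 7.05% and 10.7% of all genes. Of the 9, SEMA3C passed the filter only through groups in which it was high. With no filter on low values, EPHA2 (limma adjusted p = 0.14) and PLXND1 (0.113) lost their siHAND2 calls. UNC5A (0.1265), PLXNB1 (0.0633) and SEMA4G (0.1555) then lost their siMYCN calls, and EFNB3 (0.238) its siHAND2 call. Called in opposite directions by the single knockdowns were 5 genes (EPHA8, SEMA5A, SEMA6B, SLIT3 and UNC5C), against 2.22% of all genes. Called in the combined knockdown but in neither single one were 6 genes (EFNB1, EPHA10, NTN3, PLXNB2, ROBO3 and SEMA6A), against 19.4% of all genes. UNC5B, PLXNA1, SEMA3F, SEMA4C and SEMA4D were called in none. After rescaling, 47 were called at least once, 13 were higher in all 3 knockdowns, PLXND1 alone was lower in all 3, and 7 were opposite in the single knockdowns, against 80.6%, 14.8%, 12.5% and 3.61% of all genes.

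**Figure D1:**
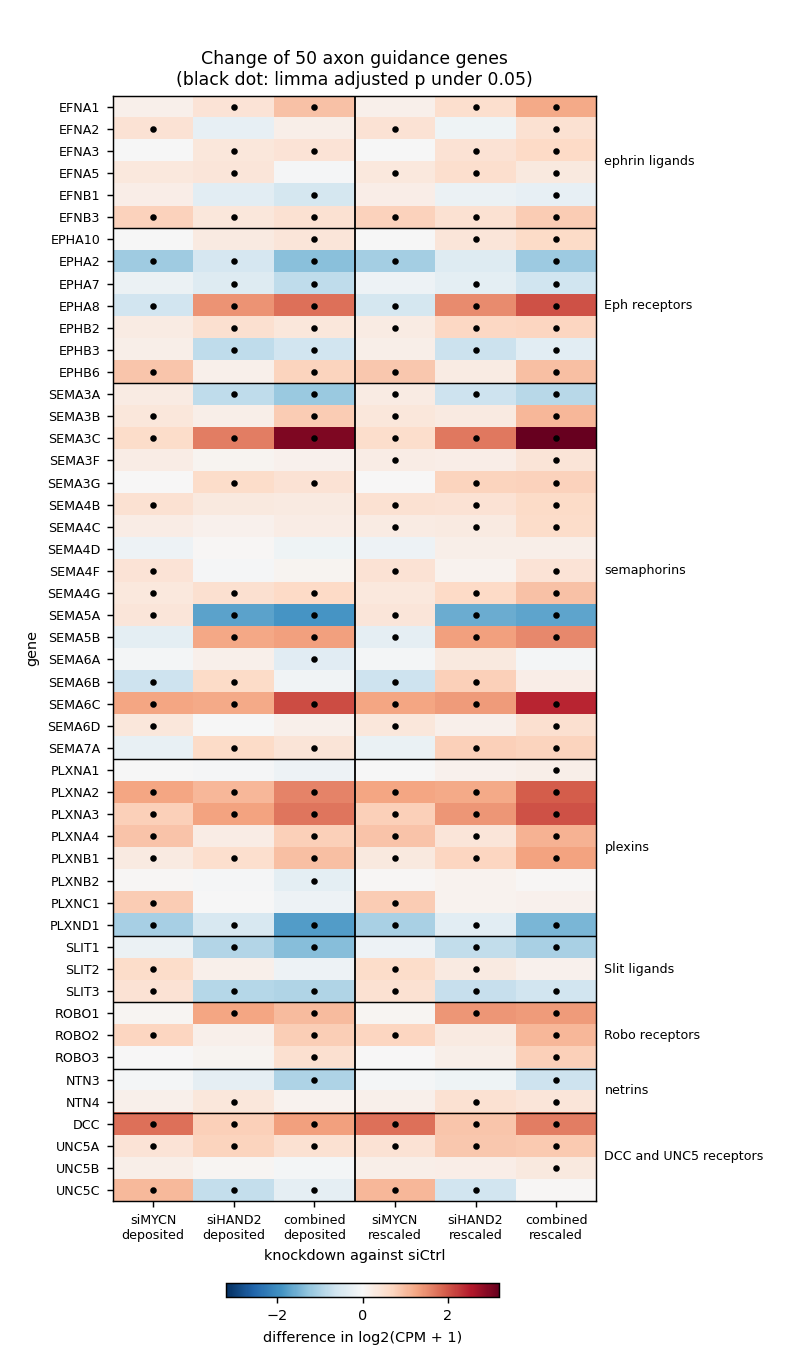
Difference from siCtrl in log2(CPM + 1) for the 50 tested genes (rows, by family) in each knockdown (columns), as deposited on the left and after rescaling on the right, with a black dot where the limma adjusted p is under 0.05. SEMA3C and SEMA6C carry the deepest red in the combined knockdown (2.98 and 2.09 as deposited) and SEMA5A and PLXND1 the deepest blue (-1.89 and -1.80).

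Levels between genes were compared per kb of exon. In siCtrl the highest tested genes were the netrin receptor UNC5B (15.3 CPM per kb), the plexin PLXNB2 (8.79), the Slit ligand SLIT3 (8.15), the semaphorin SEMA4F (6.91) and PLXNA1 (6.38), followed by EFNA5 (5.74), ROBO1 (5.43) and NTN3 (5.42). UNC5B stood above PLXNB2, and SLIT3 above SEMA4F, by more than their SDs, while 41 of the 49 neighbouring pairs in the order of the 50 genes overlapped within 1 SD of each mean. UNC5B itself lay at 107, 119 and 87.2 CPM in siCtrl and at 115, 110 and 78.4 CPM in the combined knockdown, so its groups overlapped and its log2 difference was -0.06 (95% interval -0.36 to 0.25). After rescaling UNC5B was called higher there (0.30, limma adjusted p = 0.0306). UNC5B overlaps UNC5B-AS1, and SLIT3 overlaps LOC101927969 and LOC728095, all on the other strand. Reads of these genes cannot be told apart without strand. DCC, the partner of UNC5 proteins, stood at 0.384 CPM per kb in siCtrl.

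**Figure D2:**
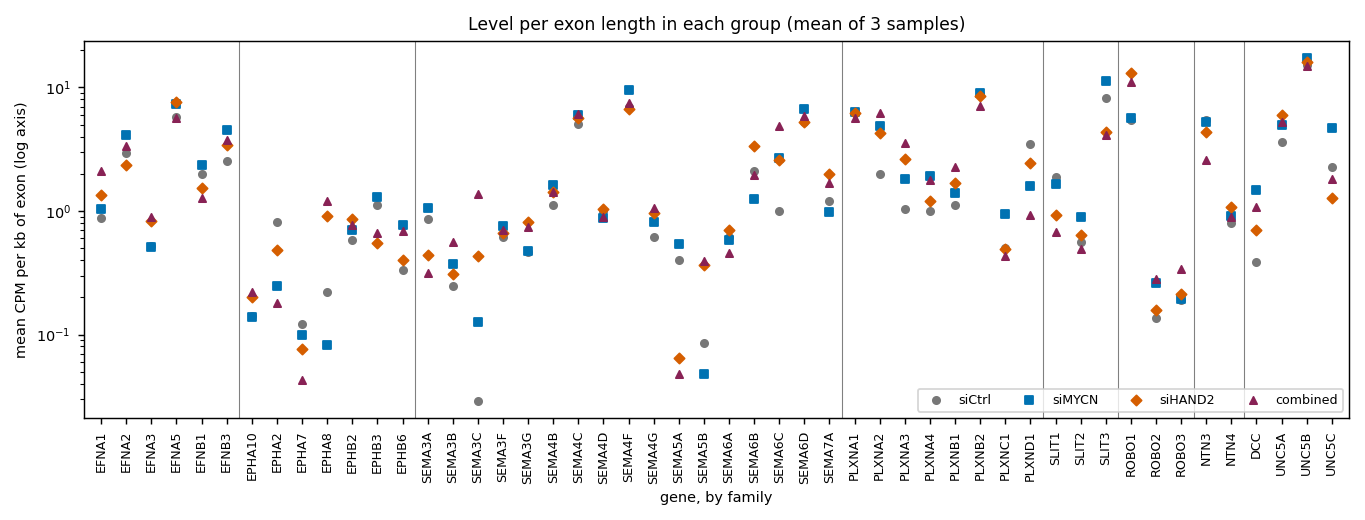
Mean CPM per kb of exon (log axis) of the 50 tested genes in siCtrl, siMYCN, siHAND2 and the combined knockdown (n = 3 each), ordered by family. UNC5B stayed at the top in the plot, SEMA3C climbed from the lowest siCtrl level, and SEMA5A dropped in the 2 groups that received siHAND2_3.

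Left untested for a mean under 1 CPM were 17 genes, of which 13 stayed under 1 CPM in every sample. These were EFNA4, EPHA1, EPHA3, EPHA4, EPHA5, EPHB1, EPHB4, SEMA3D, SEMA3E, ROBO4, NTN1, NTN5 and UNC5D, with EFNA4 reaching 0.639 CPM, NTN1 0.609 and EPHA3 no more than 0.028. EFNB2, EPHA6 and SEMA4A peaked at 1.22, 1.30 and 1.33 CPM. PLXNB3, a receptor of SEMA5A, lay at 0.055, 0.091 and 0.157 CPM in siCtrl, 0.633, 0.667 and 0.541 in siMYCN, 0.601, 0.559 and 0.548 in siHAND2 and 1.96, 1.27 and 1.32 with both siRNAs. Its groups overlapped only between the single knockdowns, and it has no test.

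Promoter sequences were inspected because MYCN binds E-boxes such as CACGTG, and HAND2 with its partner proteins binds E-boxes such as CATCTG. Windows from 250 bases before to 50 bases after the start site were taken from RefSeq (GRCh38.p14), which had 58 of the 67 genes. A single window was kept per guidance gene, a step not applied to the 35116 windows they are set against. CACGTG, which is its own reverse complement, occurred in 4 of the 58 windows (6.9%), those of EPHA8, SEMA3E, SEMA4D and SEMA6D, against 7.3% of all 35116 windows. CATCTG, on either strand (CAGATG on the other) and sharing no letters with a CACGTG match in the windows printed here, occurred in 4 (6.9%), those of EPHB4, PLXNA4, SEMA3B and SEMA4A, against 14.7% of all windows. The windows of EPHA8 (chr1:22563239-22563538, plus strand, CACGTG at -149), PLXNA4 (chr7:132576421-132576720, minus strand, CATCTG at -7) and SEMA5A (chr5:9546026-9546325, minus strand, neither motif) are shown, since EPHA8 and SEMA5A moved in opposite directions in the single knockdowns and PLXNA4 is the plexin with a CATCTG. Capitals mark the motif.
EPHA8: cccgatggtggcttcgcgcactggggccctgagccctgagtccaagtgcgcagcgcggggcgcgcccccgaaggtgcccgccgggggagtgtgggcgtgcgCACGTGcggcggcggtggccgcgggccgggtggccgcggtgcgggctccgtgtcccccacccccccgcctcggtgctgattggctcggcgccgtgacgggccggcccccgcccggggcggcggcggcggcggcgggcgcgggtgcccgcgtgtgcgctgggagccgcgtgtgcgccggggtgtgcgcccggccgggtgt
PLXNA4: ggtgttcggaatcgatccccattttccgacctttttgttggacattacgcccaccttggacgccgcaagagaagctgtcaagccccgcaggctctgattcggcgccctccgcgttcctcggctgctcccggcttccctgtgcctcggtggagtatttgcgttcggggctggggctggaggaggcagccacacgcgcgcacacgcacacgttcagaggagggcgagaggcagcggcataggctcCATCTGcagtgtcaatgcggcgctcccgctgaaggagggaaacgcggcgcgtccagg
SEMA5A: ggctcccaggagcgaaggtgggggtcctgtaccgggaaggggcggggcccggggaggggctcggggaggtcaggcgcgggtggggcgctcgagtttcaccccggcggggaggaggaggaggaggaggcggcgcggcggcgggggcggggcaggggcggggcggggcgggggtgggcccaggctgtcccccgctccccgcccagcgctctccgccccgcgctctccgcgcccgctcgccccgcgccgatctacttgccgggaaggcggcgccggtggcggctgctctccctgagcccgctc
These matches describe letters in the windows and do not show binding.

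Among ephrins, 2 of 6 tested genes rose in siMYCN, 4 rose in siHAND2, and 3 rose and 1 fell in the combined knockdown, where 33.7%, 42.7% and 67.4% of all genes were called. After rescaling 3, 4 and 5 were higher, where 25.4%, 25.9% and 37.7% of all genes were higher, and EFNB1 stayed lower in the combined knockdown. EFNA1, a GPI-anchored ligand of EphA receptors, lay at 2.07, 1.74 and 1.90 CPM in siCtrl and at 5.46, 4.12 and 4.22 CPM in the combined knockdown, with all 3 combined samples above every siCtrl sample. Its log2 difference was 0.94 ± 0.126 (SE) there (limma adjusted p = 3.68e-07), and 0.44 in siHAND2. EFNB3, a transmembrane ligand of the nervous system, rose in siMYCN (0.74), siHAND2 (0.36) and the combined knockdown (0.49). EFNA2 rose in siMYCN (0.45), and EFNA3 rose in siHAND2 (0.37) and the combined knockdown (0.44). EFNB1, mutated in craniofrontonasal syndrome, fell by 0.56 in the combined knockdown.

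EFNA5, a repulsive cue of visual map formation, lay at 34.5, 35.4 and 28.9 CPM in siCtrl, 44.2, 41.6 and 39.7 in siMYCN, 55.3, 40.5 and 36.1 in siHAND2 and 31.8, 38.7 and 26.6 with both siRNAs. The single knockdowns lay above siCtrl in all samples, and the combined samples overlapped siCtrl. It rose in siHAND2 (log2 difference 0.39, limma adjusted p = 0.0298), while the values in siMYCN were 0.34 (0.0674, or 0.0376 after rescaling) and in the combined knockdown -0.03, which turned to 0.32 after rescaling (0.0407), where EFNA5 was thus higher in all 3 knockdowns. The siHAND2 call of EFNA5 was lost in 2 of the 12 fits that left out 1 sample. It was weakest without siHAND2 replicate 1 (0.22, limma adjusted p = 0.244). The siHAND2 call of EFNB3 was lost in 6 of these fits, and was weakest without that same sample (0.22, 0.237). That of EFNA3 was lost in 2, and was weakest without siCtrl replicate 1 (0.32, 0.0969).

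Of the 14 Eph receptors, 7 were tested, and all 7 were called in the combined knockdown, 4 higher and 3 lower. In siMYCN, 1 rose and 2 fell, and in siHAND2, 2 rose and 3 fell, against 67.4%, 33.7% and 42.7% of all genes called. EPHA8 (chromosome 1, 22889995 to 22930088, plus strand, hg19), the receptor whose promoter window holds a CACGTG, lay at 1.21, 1.32 and 1.08 CPM in siCtrl and at 0.475, 0.321 and 0.541 CPM in siMYCN. Its values were 5.63, 4.68 and 4.55 CPM in siHAND2 and 6.52, 6.61 and 6.48 CPM with both siRNAs. No 2 of the 4 groups overlapped, with siMYCN lowest and the combined knockdown highest. On the log2(CPM + 1) scale EPHA8 fell by 0.61 ± 0.117 (SE) in siMYCN (limma adjusted p = 0.000246) and rose by 1.43 ± 0.117 in siHAND2 (4.59e-10) and 1.77 ± 0.117 in the combined knockdown (1.53e-12). As ratios of mean CPM these were 0.37, 4.11 and 5.42. The combined knockdown lay above siMYCN by 2.39 (1.7e-14) and above siHAND2 by 0.34 (0.0214). The call against siHAND2 was lost with a pseudocount of 0.1 (limma adjusted p = 0.0823) and with only the compared groups fitted (0.0776).

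EPHA2, an epithelial Eph kinase that ephrin-A1 activates, fell in every knockdown. It lay at 3.33, 3.56 and 3.17 CPM in siCtrl, 1.66, 0.766 and 0.635 in siMYCN, 2.28, 1.97 and 1.76 in siHAND2 and 1.20, 0.700 and 0.341 with both siRNAs. Every knockdown sample was below every siCtrl sample, and siMYCN and the combined knockdown overlapped. The log2 differences were -1.14 ± 0.167 in siMYCN (limma adjusted p = 8.53e-06), -0.54 in siHAND2 (0.0112, and -0.42 with 0.0506 after rescaling) and -1.35 in the combined knockdown (1.05e-07). The siHAND2 call of EPHA2 was also lost with a pseudocount of 0.1 (adjusted p = 0.0576) and with no filter on low values (0.14). EPHB6, a family member without kinase activity, rose in siMYCN (0.89) and the combined knockdown (0.72). EPHB3, a kinase of axon tract formation, fell in siHAND2 (-0.81) and the combined knockdown (-0.62), and EPHA7, best known from cortical development, in the same groups (-0.42 and -0.81), the first of which was lost without siHAND2 replicate 3 (-0.34, adjusted p = 0.078). EPHB2, a receptor of commissural axons, rose in siHAND2 (0.52) and the combined knockdown (0.37). EPHA10, another member without kinase activity, rose in the combined knockdown (0.38, or 0.34 with an adjusted p of 0.0513 without siCtrl replicate 2).

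Semaphorins included both the largest rise and the largest fall of the 50 tested genes on the log2(CPM + 1) scale. Of 17 tested, 8 rose and 1 fell in siMYCN, 7 rose and 2 fell in siHAND2, and 7 rose and 3 fell in the combined knockdown (10 and 2, 9 and 2, and 12 and 2 after rescaling), where 33.7%, 42.7% and 67.4% of all genes were called (47.9%, 50.8% and 70.7% after rescaling). These counts include SEMA3C and SEMA5B, which passed the filter only through groups in which they were high. SEMA3C (chromosome 7, 80371854 to 80548668, minus strand, hg19), a secreted cue known from cardiac neural crest, lay at 0.138, 0.228 and 0.157 CPM in siCtrl, about 5, 10 and 9 reads. It stood at 0.844, 0.865 and 0.588 CPM in siMYCN, 2.41, 2.86 and 2.72 in siHAND2 and 10.6, 8.45 and 6.22 with both siRNAs. The 4 groups rose in that order without overlap. Ratios of mean CPM to siCtrl were 4.40, 15.3 and 48.3, and the log2(CPM + 1) differences, which understate changes from so low a level, were 0.59, 1.64 and 2.98.

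SEMA6C, a transmembrane semaphorin, lay at 6.11, 5.27 and 6.07 CPM in siCtrl, 15.9, 15.5 and 15.1 in siMYCN, 15.5, 14.4 and 14.8 in siHAND2 and 33.3, 27.5 and 24.1 with both siRNAs. Both single knockdowns raised it to overlapping levels, and the combined samples lay above all others. It rose by 1.28 ± 0.115 in siMYCN (limma adjusted p = 7.13e-09), 1.22 in siHAND2 (4.84e-09) and 2.09 in the combined knockdown (5.4e-14), and siMYCN and siHAND2 differed by 0.05 (95% interval -0.18 to 0.29). The combined knockdown exceeded siMYCN by 0.82 and siHAND2 by 0.87 (adjusted p = 1.61e-06 and 2.19e-06).

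SEMA5A (chromosome 5, 9035138 to 9546234, minus strand, hg19), a transmembrane semaphorin that can attract or repel, lay at 4.65, 5.93 and 4.18 CPM in siCtrl and 7.65, 6.18 and 6.28 in siMYCN. It was at 0.791, 0.912 and 0.667 CPM in siHAND2 and 0.779, 0.544 and 0.463 with both siRNAs. The groups that received siHAND2_3 overlapped each other and lay far below the other samples, at 16.0% and 12.1% of the siCtrl mean. It fell by 1.72 ± 0.131 in siHAND2 (limma adjusted p = 1.15e-10) and by 1.89 in the combined knockdown (3.22e-12). Its rise in siMYCN was 0.39 (0.0246), and 0.29 (0.148) without siCtrl replicate 3. SEMA5A overlaps the antisense gene SEMA5A-AS1, from which reads cannot be told apart without strand. Its relative SEMA5B lay at 0.688, 0.753 and 0.767 CPM in siCtrl, 0.660, 0.297 and 0.259 in siMYCN, 3.01, 3.09 and 3.29 in siHAND2 and 4.27, 3.32 and 2.46 with both siRNAs. Both groups with siHAND2_3 lay above the rest, and siMYCN lay below siCtrl in all 3 samples. The log2 differences of SEMA5B from siCtrl were 1.25 and 1.30 there and -0.32 in siMYCN.

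SEMA3A, the classical collapse-inducing repellent of sensory and sympathetic axons, lay at 7.35, 7.10 and 6.73 CPM in siCtrl, 9.42, 8.52 and 8.16 in siMYCN, 4.21, 3.44 and 3.19 in siHAND2 and 2.68, 3.21 and 1.90 with both siRNAs. Groups with siHAND2_3 were below and siMYCN above siCtrl in all samples. SEMA3A fell by 0.81 ± 0.128 in siHAND2 (limma adjusted p = 1.47e-05) and 1.18 in the combined knockdown (1.2e-08), and its value in siMYCN was 0.27 (0.115, or 0.0472 after rescaling). SEMA6B, a ligand of A-type plexins, fell by 0.67 in siMYCN and rose by 0.62 in siHAND2. Its combined value was -0.11, or 0.21 after rescaling (limma adjusted p = 0.0573), and siMYCN and siHAND2 differed by -1.30 (95% interval -1.57 to -1.03).

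Other semaphorins changed by less than 1 on the log2 scale in each knockdown. SEMA4G rose in siMYCN (0.33), siHAND2 (0.51) and the combined knockdown (0.63), and it overlaps MRPL43. SEMA3B, a class 3 member known as a candidate tumour suppressor, rose in siMYCN (0.36) and the combined knockdown (0.80). SEMA3G (0.59 and 0.47) and SEMA7A (0.62 and 0.40), the GPI-anchored member that binds PLXNC1, rose in siHAND2 and the combined knockdown. SEMA4B (0.48), SEMA4F (0.45) and SEMA6D (0.36) rose in siMYCN, and the call of SEMA4F was lost with no filter on low values (limma adjusted p = 0.0698). SEMA6A, a ligand of PLXNA2 and PLXNA4 that overlaps SEMA6A-AS1 on the other strand, fell by 0.36 in the combined knockdown. That call was absent after rescaling (-0.05) and without siCtrl replicate 2 (-0.31, limma adjusted p = 0.093). In siMYCN the calls of SEMA3B, SEMA4B, SEMA4G and SEMA6D were each lost when 1 sample was left out, with an adjusted p of up to 0.159 (SEMA3B, without siCtrl replicate 1), 0.0565 (SEMA4B, without siMYCN replicate 1), 0.16 (SEMA4G, without siCtrl replicate 3) and 0.112 (SEMA6D, without siCtrl replicate 3). SEMA3F, SEMA4C and SEMA4D, called in no knockdown as deposited, had values from -0.16 to 0.24. After rescaling SEMA4C was called higher in all 3 knockdowns (0.25, 0.30 and 0.58) and SEMA3F in siMYCN (0.24) and the combined knockdown (0.41), and SEMA4B, SEMA4F and SEMA6D were called higher in the combined knockdown too (0.62, 0.44 and 0.51).

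Of 8 tested plexins, the semaphorin receptors, 5 rose and 1 fell in siMYCN, 3 and 1 in siHAND2, and 4 and 2 in the combined knockdown, where 33.7%, 42.7% and 67.4% of all genes were called. PLXNA2, a receptor of SEMA6A and a partner of neuropilins, lay at 27.6, 28.8 and 26.7 CPM in siCtrl, 70.4, 71.1 and 61.1 in siMYCN, 67.3, 54.4 and 55.5 in siHAND2 and 91.7, 97.6 and 69.2 with both siRNAs. All knockdown samples lay above siCtrl, and the single knockdowns overlapped. It rose by 1.25 ± 0.127 in siMYCN (limma adjusted p = 4.1e-08), 1.06 in siHAND2 (2.78e-07) and 1.59 in the combined knockdown (4.41e-11). PLXNA3, another neuropilin partner, lay at 13.0, 13.0 and 10.6 CPM in siCtrl, 23.8, 19.8 and 20.2 in siMYCN, 35.1, 29.5 and 28.2 in siHAND2 and 45.0, 43.2 and 37.6 with both siRNAs. Its 4 groups rose in that order without overlap. The differences from siCtrl were 0.76 ± 0.12, 1.28 and 1.70 (adjusted p = 2.66e-05, 5.08e-09 and 4.72e-12), and the combined knockdown exceeded siMYCN by 0.95 and siHAND2 by 0.43.

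PLXND1, the receptor of SEMA3E in vessels and axons, lay at 35.8, 37.4 and 26.5 CPM in siCtrl, 16.1, 15.7 and 14.1 in siMYCN, 27.9, 22.8 and 18.9 in siHAND2 and 10.0, 9.61 and 6.90 with both siRNAs. siHAND2 overlapped siCtrl, while siMYCN and the combined knockdown did not overlap any other group. PLXND1 fell by 1.06 ± 0.146 in siMYCN (limma adjusted p = 4.24e-06), 0.50 in siHAND2 (0.00754) and 1.80 with both siRNAs (6.08e-11). The siHAND2 call was lost without siHAND2 replicate 3 (-0.37, adjusted p = 0.0617) and with no filter on low values (0.113). PLXNC1, the receptor of SEMA7A, lay at 4.43, 5.64 and 4.88 CPM in siCtrl, 9.99, 9.52 and 8.94 in siMYCN, 5.21, 4.61 and 4.91 in siHAND2 and 4.64, 4.59 and 3.90 with both siRNAs. Only siMYCN stood apart, and the other groups overlapped. It rose by 0.81 ± 0.113 in siMYCN (4.33e-06), with values of -0.01 and -0.15 in the other knockdowns. PLXNC1 overlaps CEP83 on the other strand.

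PLXNA4, whose window holds a CATCTG, rose in siMYCN (0.91) and the combined knockdown (0.77), and its value in siHAND2 was called after rescaling alone. PLXNB1, the SEMA4D receptor, rose in siMYCN (0.30), siHAND2 (0.53) and the combined knockdown (0.95). Its siMYCN call was lost in 7 of the 12 fits that left out 1 sample, and was weakest without siMYCN replicate 1 (0.24, limma adjusted p = 0.176). PLXNB2, a receptor of class 4 semaphorins and the plexin with the highest level per kb, had a called fall of 0.32 in the combined knockdown that turned to 0.04 after rescaling and was -0.18 without combined replicate 3 (adjusted p = 0.14). PLXNA1 was called in no knockdown as deposited (-0.02, -0.03 and -0.17) and was 0.19 higher in the combined knockdown after rescaling, where it was called.

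In siHAND2, 2 of the 3 Slits fell and 1 of the 3 tested Robo receptors rose, where 30.4% of all genes were lower and 12.3% higher. SLIT1 (chromosome 10, 98757795 to 98945684, minus strand, hg19), a secreted midline repellent, lay at 18.1, 17.4 and 16.2 CPM in siCtrl, 15.6, 15.7 and 14.1 in siMYCN, 8.82, 8.35 and 8.23 in siHAND2 and 6.43, 6.53 and 5.46 with both siRNAs. The groups stepped down in that order without overlap. SLIT1 fell by 0.95 ± 0.106 in siHAND2 (limma adjusted p = 1.03e-07) and 1.36 in the combined knockdown (3.12e-11), and its value in siMYCN was -0.18 (0.21). It shares exons with the readthrough ARHGAP19-SLIT1 on its strand and overlaps SLIT1-AS1 on the other, so its reads are uncertain. SLIT3 lay at 123, 125 and 101 CPM in siCtrl, 180, 156 and 148 in siMYCN, 72.0, 60.2 and 53.1 in siHAND2 and 64.6, 65.7 and 47.6 with both siRNAs. Its siMYCN samples were all above siCtrl, and the siHAND2 and combined samples were all below and overlapped each other. It rose by 0.47 in siMYCN (0.00972, or 0.38 with 0.0742 without siCtrl replicate 3) and fell by 0.91 in siHAND2 (8.3e-06) and 0.97 in the combined knockdown (9.62e-07). SLIT2 lay at 7.02, 5.93 and 5.79 CPM in siCtrl, 10.1, 9.51 and 9.95 in siMYCN, 7.88, 7.50 and 5.95 in siHAND2 and 5.36, 6.22 and 4.78 with both siRNAs. It was high in siMYCN alone (0.59 ± 0.12, adjusted p = 0.000466), with values of 0.16 (called at 0.30 after rescaling) and -0.17 in the others, whose samples overlapped siCtrl.

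ROBO1, the broadly expressed Slit receptor, lay at 64.4, 63.3 and 52.2 CPM in siCtrl, 61.5, 66.1 and 59.0 in siMYCN, 158, 146 and 132 in siHAND2 and 128, 133 and 104 with both siRNAs. siMYCN overlapped siCtrl, and both groups with siHAND2_3 lay above them and overlapped each other. It rose by 1.27 ± 0.122 in siHAND2 (limma adjusted p = 7.64e-09) and 1.01 in the combined knockdown (7.65e-08), and its value in siMYCN was 0.06 (95% interval -0.20 to 0.31). ROBO2 rose in siMYCN (0.70) and the combined knockdown (0.79). ROBO3, which modulates Slit repulsion at the midline, rose by 0.52 in the combined knockdown. In siMYCN 2 Slits and 1 Robo gene rose, where 17.4% of all genes were higher and 16.3% lower. In the combined knockdown 2 Slits fell and all 3 tested Robo genes rose, where 50.1% of all genes were lower and 17.4% higher.

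Of the netrin receptors, 3 of 4 tested were called in each knockdown (33.7%, 42.7% and 67.4% of all genes), and of the 2 tested netrins 1 was called in siHAND2 and 1 in the combined knockdown. DCC (chromosome 18, 49866542 to 51062274, plus strand, hg19) lay at 6.00, 4.88 and 4.20 CPM in siCtrl, 21.4, 18.1 and 18.7 in siMYCN, 11.8, 8.45 and 7.50 in siHAND2 and 11.7, 18.0 and 12.6 with both siRNAs. All knockdown samples lay above siCtrl, siMYCN lay above all other samples, and the siHAND2 and combined samples overlapped. DCC rose by 1.77 ± 0.152 in siMYCN (limma adjusted p = 3.33e-09), 0.75 in siHAND2 (0.000276) and 1.31 with both siRNAs (3.43e-08). The combined value was below that of siMYCN by 0.45 (adjusted p = 0.0129), a call absent after rescaling (-0.12).

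UNC5C, a receptor of netrin repulsion, lay at 22.1, 27.8 and 22.4 CPM in siCtrl, 50.3, 50.2 and 50.9 in siMYCN, 14.5, 13.4 and 13.2 in siHAND2 and 18.5, 22.1 and 17.6 with both siRNAs. No groups overlapped, with siMYCN highest and siHAND2 lowest, although the lowest siCtrl and the highest combined sample were nearly equal. It rose by 1.05 ± 0.115 in siMYCN (limma adjusted p = 1.38e-07) and fell by 0.76 in siHAND2 (6.97e-06). The called fall of 0.30 in the combined knockdown turned to 0.05 after rescaling and was -0.20 (adjusted p = 0.179) without siCtrl replicate 2. UNC5A lay at 16.8, 15.5 and 14.3 CPM in siCtrl and rose in siMYCN (0.45, or 0.39 with 0.0667 without siMYCN replicate 1), siHAND2 (0.71) and the combined knockdown (0.50). It overlaps HK3. NTN3 lay at 11.6, 11.5 and 12.4 CPM in siCtrl and 6.58, 6.45 and 3.90 CPM in the combined knockdown, where it fell by 0.98 (7.59e-07). Values of NTN3 in siMYCN and siHAND2 were -0.06 and -0.28. NTN4, a netrin related to laminin chains, rose in siHAND2 (0.35). That call was lost in 5 of the 12 fits that left out 1 sample, and was weakest without siCtrl replicate 1 (0.31, limma adjusted p = 0.121).

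**Figure D3:**
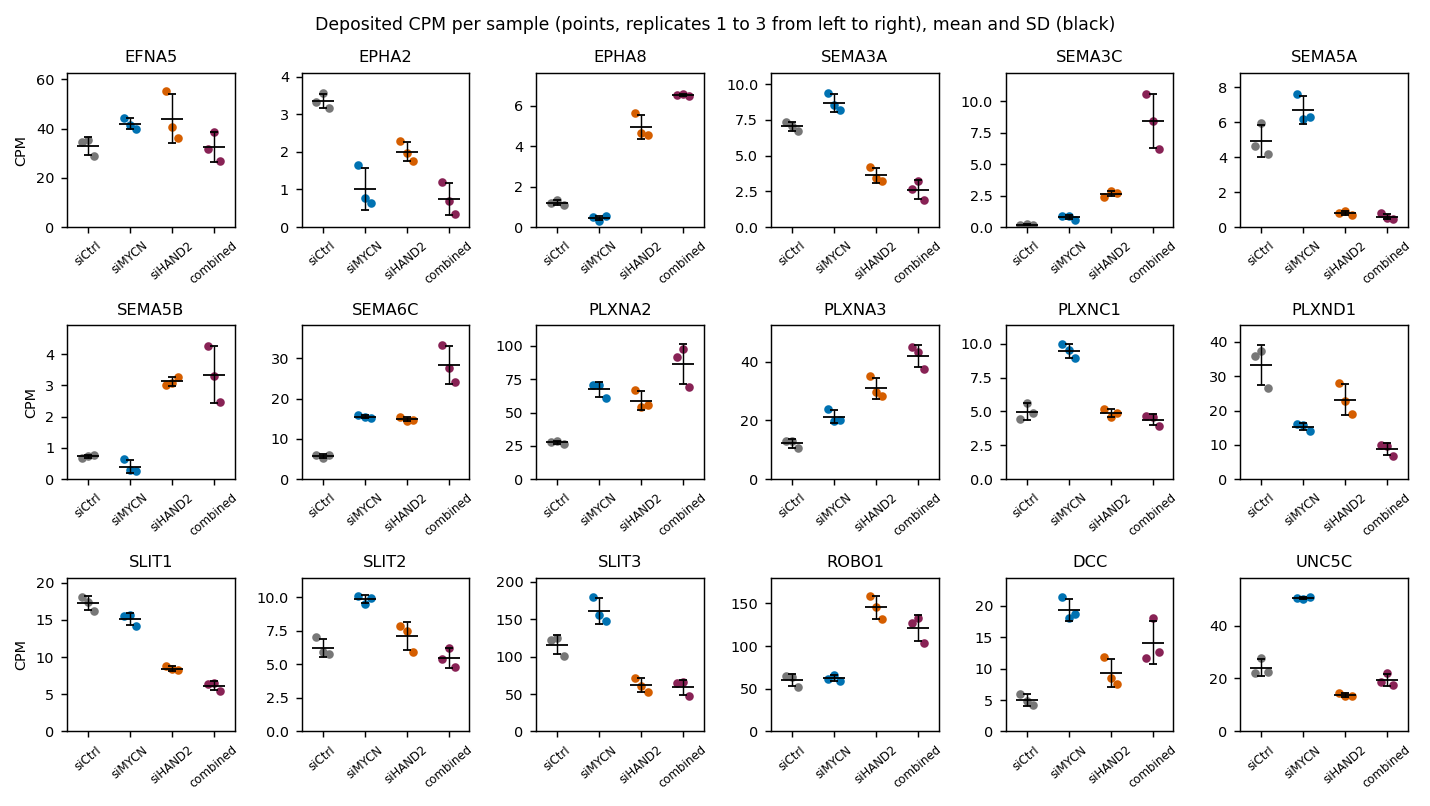
Deposited CPM of each sample (points, 1 panel per gene, axes from 0) in siCtrl, siMYCN, siHAND2 and the combined knockdown, with the mean and SD of 3 samples in black. EPHA8 and SEMA5A move in opposite senses between siMYCN and siHAND2, SEMA6C and PLXNA3 are highest in the combined knockdown, and PLXNC1 and SLIT2 are high in siMYCN.

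Direct comparison of the single knockdowns called 28 of the 50 genes, 17 higher in siMYCN and 11 higher in siHAND2, where 35% of all genes were called, 26.1% higher and 8.98% lower. After rescaling the balance turned, with 16 higher in siMYCN and 19 higher in siHAND2, where 44.5% of all genes were called, 22.4% higher and 22.2% lower. The largest differences, siMYCN minus siHAND2, were 2.10 for SEMA5A (limma adjusted p = 1.76e-12), -2.04 for EPHA8 (3.89e-13), 1.81 for UNC5C (2.63e-12), -1.57 for SEMA5B and 1.38 for SLIT3 (1.61e-08). The groups of each of these 5 genes did not overlap, but the genes were picked for their large differences, and no share over all genes is given for this. Without SEMA3C and SEMA5B, which passed the filter only through groups in which they were high, 17 genes were higher in siMYCN and 9 in siHAND2 as deposited. Compared with siMYCN, the combined knockdown called 34 genes, 17 higher and 17 lower, where 58.9% of all genes were called, 8.92% higher and 50% lower (23 and 12 after rescaling, where 56.7% were called, 30% higher and 26.6% lower). Against siHAND2 it called 25 genes, 15 higher and 10 lower, where 40.3% of all genes were called, 8.75% higher and 31.5% lower (20 and 7 after rescaling, where 49.7% were called, 26.1% higher and 23.6% lower).

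Whether one knockdown changed the effect of the other was tested by the interaction, the combined value minus both single values plus siCtrl on the log2(CPM + 1) scale. It was called for 9 of the 50 genes, 2 positive and 7 negative, where 4.01% of all genes were called, 0.355% positive and 3.65% negative. The median interaction of the 50 genes was -0.27 and that of all genes -0.18. Negative values, in which the combined change was below the sum of the single changes, were found for DCC (-1.21 ± 0.215 SE, limma adjusted p = 0.00147), PLXNC1 (-0.95, 0.000842), SLIT2 (-0.91, 0.0023), EFNA5 (-0.76, 0.0289), PLXNA2 (-0.72, 0.0203), SEMA3A (-0.64, 0.0456) and UNC5C (-0.58, 0.0412). Positive values were found for EPHA8 (0.96 ± 0.166, 0.00115) and SEMA3C (0.75). Without SEMA3C and SEMA5B, which passed the filter only through groups in which they were high, 1 of 48 genes was positive and 7 were negative. The SEMA3C value turned to -0.06 with a pseudocount of 0.1, so its sign depends on the scale. PLXNC1 and SLIT2 share the form in which the rise of siMYCN was not seen when siHAND2_3 was added, and DCC rose in all knockdowns but less in the combined one than the single changes add up to.

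Calls of DCC, EPHA8, PLXNC1 and SLIT2 held in all 12 fits that left out 1 sample, but with no filter on low values EPHA8 and PLXNC1 kept theirs while DCC (limma adjusted p = 0.155) and SLIT2 (0.0691) did not. The other 5 were lost in several of these 12 fits: SEMA3A in 9, UNC5C in 7, SEMA3C in 6, and EFNA5 and PLXNA2 in 5 each. The limma adjusted p reached 0.136 for UNC5C (without siCtrl replicate 1). Without siHAND2 replicate 1 it reached 0.109 for EFNA5, 0.075 for PLXNA2 and 0.138 for SEMA3A. The SEMA3C call was weakest without siMYCN replicate 3. After rescaling 8 genes were called, 3 positive and 5 negative, where 6.14% of all genes were called, 1.67% positive and 4.47% negative, and EFNA5, SEMA3A and UNC5C were no longer among them, while ROBO3 (0.56) and UNC5A (-0.47) were.

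**Figure D4:**
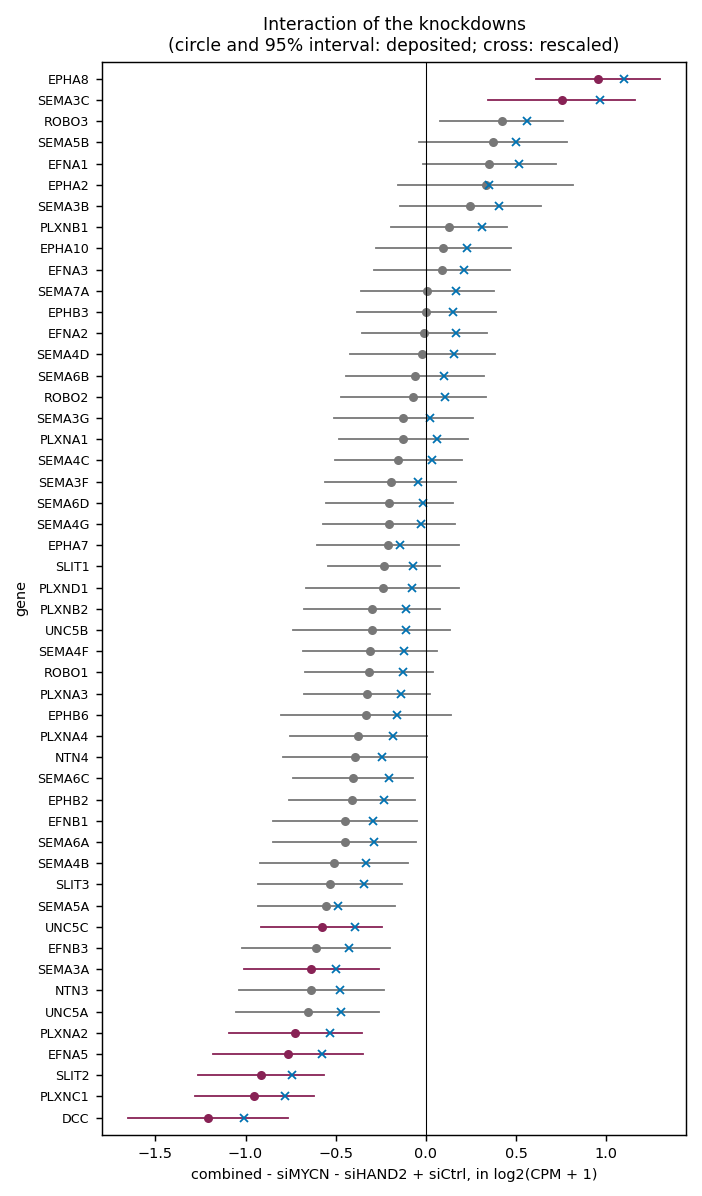
Interaction coefficient (combined minus siMYCN minus siHAND2 plus siCtrl, in log2(CPM + 1)) of the 50 tested genes, with circles and 95% intervals as deposited, called genes in purple, and crosses after rescaling. EPHA8 (0.96) and SEMA3C (0.75) lie at the top and DCC (-1.21) at the bottom.

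Further genes of the pathway were counted from lists of co-receptors and other cues (30 genes, 27 tested) and intracellular effectors (57 genes, 52 tested). Of the co-receptors and cues, 19 rose and none fell in siMYCN by limma (0 also at an unadjusted p under 0.05), 11 rose and 6 fell in siHAND2, and 11 rose and 5 fell in the combined knockdown (20 and 0, 14 and 5, and 16 and 3 after rescaling). Over all genes 17.4% were higher and 16.3% lower in siMYCN, 12.3% and 30.4% in siHAND2, and 17.4% and 50.1% in the combined knockdown. After rescaling these shares were 25.4% and 22.5%, 25.9% and 24.9%, and 37.7% and 33%. Median log2 differences of the co-receptors and cues were 0.49, 0.18 and 0.17. In siMYCN the largest rises were those of the semaphorin co-receptor NRP1 (9.87 ± 1.26 CPM in siCtrl and 49.7 ± 5.99 in siMYCN, SD, n = 3, log2 difference 2.22) and the adhesion molecules CHL1 (1.57) and L1CAM (1.57). In siHAND2 they were the axonal adhesion protein CNTN2 (96.7 ± 4.36 against 551 ± 43.0 CPM, 2.5), the teneurin TENM1 (1.26) and L1CAM (1.02). FLRT3, a guidance protein that binds UNC5 receptors and latrophilins, fell by 2.52 in siHAND2 (24.8 ± 1.61 against 3.49 ± 0.093 CPM), had a difference of -2.20 in the combined knockdown and rose by 0.62 in siMYCN. In the combined knockdown CNTN2 (2.76) and TENM1 (2.24) rose most, and FLRT2, another UNC5 ligand, fell by 1.08. NRP1 fell by 0.53 in siHAND2, a call lost with no filter on low values (limma adjusted p = 0.117), and its combined value was 0.06.

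Of the intracellular effectors, 17 rose and 2 fell in siMYCN, 12 rose and 9 fell in siHAND2, and 12 rose and 18 fell in the combined knockdown. Called were thus 19, 21 and 30 of 52, where 33.7%, 42.7% and 67.4% of all genes were called. After rescaling these counts were 28 and 3, 23 and 8, and 31 and 10, where 47.9%, 50.8% and 70.7% of all genes were called. The balance in the combined knockdown thus turned with the scale. That over all genes turned too, from 17.4% higher and 50.1% lower to 37.7% and 33%. Median differences of the effectors as deposited were 0.22, 0.02 and -0.11. Both called falls in siMYCN were MICAL2, a redox enzyme of the actin cytoskeleton related to the plexin effector MICAL1 (-0.92), and the actin-binding ABLIM1 (-0.60). DPYSL3, a collapsin response mediator protein, had the third largest rise of the combined knockdown over both lists (79.6 ± 6.64 against 309 ± 73.5 CPM, 1.92). ARHGEF28, a guanine nucleotide exchange factor, fell in siHAND2 (-1.35) and the combined knockdown (-1.34) and rose in siMYCN (1.01), and CHN2, a chimaerin that inactivates Rac, fell by 0.86 in siHAND2.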

How the data were processed

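RNA was sequenced from 12 IMR32 samples, 3 per group, grouped by sample title. The authors deposited a table of CPM values with 1 column per sample and 27514 genes in hg19 coordinates. STAR 2.5.1 and Partek are named, per the submitters' processing notes, and the counting, annotation and use of strand are not given in the sources used here. Every deposited value carried an offset of 0.0001. The worth of 1 read, and with it the depth, was read from steps among low values. Between 90.9 and 92.2% of values under 20 reads were then whole within 0.1 reads, but only 68.0 to 84.0% of those of 20 to 200 reads, so a count test was not applied. Floors of 3 reads cover counting error only.

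The 12680 genes with a mean of at least 1 CPM were fitted as log2(CPM + 1) over all 12 samples with limma 3.58.1 (lmFit, eBayes with trend, 8 residual degrees of freedom) in R 4.3.3. All 7 contrasts of the report, the interaction included, came from this fit. Levels per kb used the merged exons of GENCODE 44 on GRCh37. Tests were two-sided, with Benjamini-Hochberg adjustment over all genes tested and a threshold of 0.05, and intervals are 95%. The script was tested on simulated data. Samples of a group differed beyond sampling noise (chi-square per gene 3.36 to 37.8), so none were merged.

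The genes and lists were chosen with earlier results of these data known. Every called gene is named, with each sample's value where the log2 difference from siCtrl reached 1 or the interaction was called, and from the other pathway lists the 3 largest rises and 3 largest falls per knockdown. SLIT3, UNC5B, EFNA1, NTN3, UNC5A and PLXNB3 have sample values beyond that rule, chosen after their values were seen. Also tried were another pseudocount, other filters and thresholds, 2 rescalings, a replicate block, a fit of only the compared groups and leaving out each sample.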

Additional observations from a re-analysis of the deposited data

Results flagged for a closer look

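The effect of one knockdown differed with the other present, by the interaction term of the limma fit, for 9 of the 50 guidance genes, where 508 of 12680 genes (4.01%) were called. Of the 9, 5 were lost in 5 to 9 of the 12 fits that left out 1 sample (EFNA5, PLXNA2, SEMA3A, SEMA3C and UNC5C). After rescaling EFNA5, SEMA3A and UNC5C were lost. The coefficients on the log2(CPM + 1) scale were -1.207 for DCC (adjusted p = 0.00147), -0.951 for PLXNC1 (0.000842), -0.914 for SLIT2 (0.0023), -0.764 for EFNA5 (0.0289), -0.724 for PLXNA2 (0.0203), -0.636 for SEMA3A (0.0456) and -0.578 for UNC5C (0.0412). They were 0.955 for EPHA8 (0.00115) and 0.752 for SEMA3C, which passed the filter on low values only through the groups in which it was high. In the combined knockdown, DCC remained above siCtrl by 1.31, whereas PLXNC1 and SLIT2, which rose in siMYCN, stood at -0.15 and -0.17. EPHA8 fell in siMYCN and yet was highest with both siRNAs. The median interaction over all genes tested was -0.18 as deposited and -0.01 after rescaling.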

How the results depend on the processing

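Counts of called guidance genes changed most for the interaction (9 as reported): 2 with no filter on low values (EPHA8 and PLXNC1), 4 at an adjusted p under 0.01, 1 at an absolute log2 difference of at least 1, and 15 with a replicate block, where all genes called went from 508 to 1282 and intracellular effectors from 1 to 6. The replicate block moved no other count of guidance genes by more than 1.5 times and ended no named call. Deviations of same-numbered samples on the deposited scale correlated between -0.192 and 0.44 (mean 0.168). On that scale the share of reads in listed genes, 44.3 to 58.4% in the combined knockdown, shifts all genes of a sample. These correlations therefore cannot decide whether the numbers pair the samples, and the main fit left them unpaired. Not every pair exceeded 0.1. Every pair did between siCtrl and siMYCN (0.147 to 0.44) and between siMYCN and siHAND2 (0.137 to 0.33), where the block gave 27 calls against 26 and 30 against 28. Of 12 samples, 8 correlated best with their own number. The column headers also number the samples in sequence by replicate, each run covering all 4 groups. Whether same-numbered samples were handled together is not stated, and no label names a batch. With a mean of at least 5 CPM, 32 guidance genes were tested and 17 were called in siHAND2, 20 in the combined knockdown, 21 in combined against siMYCN, 16 in combined against siHAND2 and 18 in siMYCN against siHAND2. At an absolute log2 difference of at least 1 there were 6 in siMYCN, 8 in siHAND2, 13 in the combined knockdown, 8 and 2 in the combined knockdown against siMYCN and siHAND2, and 11 in siMYCN against siHAND2. Shares over all genes are not given for these 2 settings, with no filter on low values or at an adjusted p under 0.01. They are also not given for most fits that left out 1 sample. Counts without such a share are not read as a result about guidance genes. Leaving out 1 sample gave 3202 to 5756 calls over all genes in siMYCN, 4303 to 6941 in siHAND2 and 7833 to 9340 in the combined knockdown. It gave 6414 to 8960 and 3905 to 6962 in the combined knockdown against siMYCN and siHAND2, 3261 to 6082 in siMYCN against siHAND2 and 263 to 4443 for the interaction. For guidance genes the counts were 19 to 31 in siMYCN, 25 to 34 in siHAND2, 32 to 40 in the combined knockdown, 28 to 34 and 21 to 30 in the combined knockdown against siMYCN and siHAND2, 25 to 32 in siMYCN against siHAND2 and 4 to 21 for the interaction. The interaction count was 4 without siCtrl replicate 3 or siHAND2 replicate 1, 5 without siMYCN replicate 1, siMYCN replicate 2 or siHAND2 replicate 2, and 21 without combined replicate 1, where 4443 of all genes were called against 508; the cause was not tested.

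Called values that changed sign were the SEMA3C interaction (-0.06 with a pseudocount of 0.1) and, in the combined knockdown against siCtrl, UNC5C (0.047 rescaled by the median ratio, with or without a replicate block, and 0.038 rescaled to the sum over the listed genes) and PLXNB2 (0.037 and 0.027 likewise). Of values not called as deposited, EFNA5 (0.316), PLXNA1 (0.187) and UNC5B (0.301) turned positive and were called in the combined knockdown when rescaled by the median ratio. The calls held in all 12 fits leaving out a sample for 18 of 26 genes in siMYCN, 23 of 29 in siHAND2 and 32 of 36 in the combined knockdown. Lost in at least 4 of these fits were PLXNB1 (7 fits), SEMA4G (8), SEMA3B (4) and SEMA6D (4) in siMYCN. In siHAND2 these were EFNB3 (6), NTN4 (5) and EPHA7 (4), and in the combined knockdown PLXNB2 (4) and SEMA6A (4). With no filter on low values, calls lost in siMYCN included UNC5A, PLXNB1, SEMA3B, SEMA4B, SEMA4F, SEMA4G, SEMA5A, SEMA6D and SLIT3. Those lost in siHAND2 included EFNA3, EFNA5, EFNB3, EPHA2, EPHA7, NTN4 and PLXND1, and in the combined knockdown EFNB3, PLXNB2 and SEMA6A. With a pseudocount of 0.1, SEMA5A in siMYCN and EPHA2 in siHAND2 were no longer called. The 1 CPM minimum left 17 genes untested, and depth limits the ratios of SEMA3C, which rests on 5 to 10 reads per sample in siCtrl.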
